A study of Mus musculus with 4 samples.

Results

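REST occupancy was examined at the cadherin genes of mouse embryonic stem cells (ESCs), a family of 62 of the 22219 protein-coding genes of the GENCODE M1 annotation (build mm9). The members were set by name: every gene whose symbol begins with Cdh and a digit, every Pcdh gene, and Celsr1, Celsr2 and Celsr3. The family itself was chosen with earlier results of these data known. A region belonged to a member when its midpoint lay within 20 kb of any protein-coding transcription start site (TSS) of that gene. Of 2504 listed regions, 8 met this rule. Regions lying deeper inside the same genes were followed separately.

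The series comprised 4 samples, of which 1, REST ChIP-seq from WT ESCs, was analysed. H3K27me3 ChIP-seq from WT and REST -/- ESCs and the input DNA were not analysed here. The analysed cells were the N6 line, labelled C57BL/6, a single wild type line grown with leukemia inhibitory factor and serum on irradiated feeder fibroblasts and then passaged on gelatin to remove the feeders. The ChIP used rabbit polyclonal anti-REST raised against a C-terminal peptide, and parallel ChIPs of separate cultures were pooled to make 1 library. The list gives each region its position and its rank by enrichment (1 for the most enriched), so there was no spread between replicates, the depth behind a region was unknown, and no p-value was taken. It holds no expression values, and the labelled cell type could not be checked against expressed markers.

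Cadherins are calcium-dependent adhesion proteins. The classical cadherins of types I and II bind the same or related cadherins on neighbouring cells and are tied to actin by catenins. Protocadherins lack the catenin-binding tail and include the delta proteins, encoded by scattered genes, and the clustered proteins, whose many promoters are chosen in different combinations in different neurons. The Celsr proteins are large cadherins with a receptor-like membrane domain that act in planar cell polarity and in the guidance of axon tracts. REST is a zinc finger repressor that keeps neuronal genes silent outside neurons by binding the RE1 element.

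The RE1 read from the regions outside the family was TTCAGCACCNNGGACAGCGCC, in which a left element of 9 bases (TTCAGCACC) and a right element of 10 bases (GGACAGCGCC) flank 2 free bases. It was derived from 2483 regions and was searched on both strands. A full RE1 was called at up to 5 mismatches over the 19 defined bases. Single elements were allowed 1 mismatch each, and a pair of elements 3 to 20 bases apart was called a wider-gap pair.

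A REST region lay within 20 kb of a TSS for 6 of the 62 members, 9.68% (exact Clopper-Pearson 95% interval 3.63 to 19.9%), against 8.20% of all protein-coding genes. The 6 genes were Celsr3, Pcdh1, Cdh22, Cdh2, Pcdha11 and Pcdh8. The interval covers counting error only and includes the value of all genes. Since the 24 clustered protocadherins lie side by side, they were also counted as 1 locus, which gave 6 of 39 loci, or 15.4% (5.86 to 30.5%). The other genes were not grouped into loci, so this share has no like value over all genes. Within 5 kb, 5 of 62 members had a region, 8.06% (2.67 to 17.8%), against 3.57% of all protein-coding genes. A region from the 1252 of best rank lay within 20 kb of 6 members, 9.68%, against 4.46% of all genes, and this value too is inside the family's interval. Within 50 kb the order turned, with 9 of 62 members, 14.5% (6.86 to 25.8%), against 15.8% of all genes.

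The members near a region were spread over the subfamilies rather than gathered in one. Of 5 type I classical cadherins, 1 had a region (Cdh2), and of 13 type II cadherins, 1 (Cdh22). Among the delta-1 protocadherins it was 1 of 4 (Pcdh1) and among the delta-2 protocadherins 1 of 5 (Pcdh8). Of the Celsr genes 1 of 3 had a region (Celsr3), and of the clustered protocadherins 1 of 24 (Pcdha11). The 5 other cadherins (Cdh13, Cdh16, Cdh17, Cdh23 and Cdh26) and the 3 other protocadherins (Pcdh12, Pcdh15 and Pcdh20) had none, which with so few genes allows shares of up to 52.2% and 70.8%. Every subfamily's interval included the 8.20% of all genes, so the subfamilies could not be ordered from these counts.

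**Figure D1:**
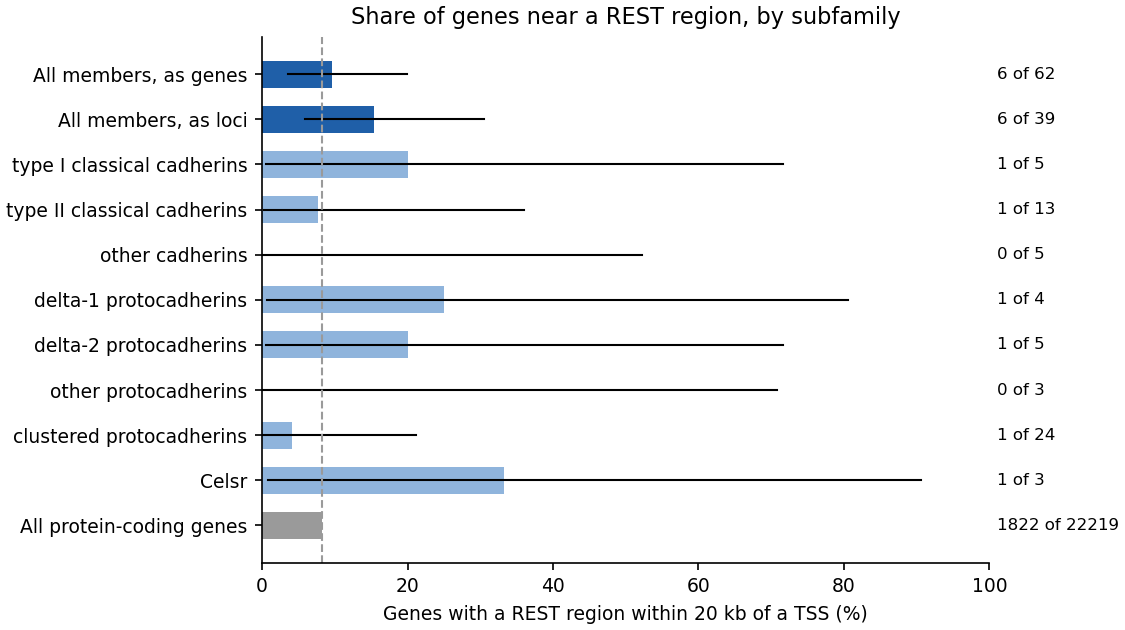
Percentage of genes with a REST region within 20 kb of a TSS (x axis) for all members counted as genes or as loci, for each subfamily, and for all protein-coding genes at the bottom. Bars give the percentage, black lines the exact 95% intervals (counting error only), the dashed line the 8.20% of all protein-coding genes, and the numbers at the right the counts. Every interval crosses the dashed line, which counts genes singly and so is not the like value for the bar of loci.

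The 8 regions ranked between 51 and 1275, with a median of 659.0 against 1252.5 for the midpoint of the list. The list also holds regions far from any TSS, and no median over regions within 20 kb of any protein-coding TSS is given here. Of the 8, 7 lay among the 1252 regions of best rank and 4 among the best 626. They were 275 to 482 bp wide, with a median of 307.5 bp against 264.0 bp over the list. In each case the member was the gene whose TSS lay nearest. The regions were divided evenly by direction, 4 upstream and 4 downstream of the TSS, and 6 of the 8 lay within 5 kb. Within 1 kb of the member's TSS there were 2, 25.0% (3.19 to 65.1%), and both belonged to Celsr3. Over the whole list, 368 of 2504 regions, 14.7%, lay within 1 kb of a protein-coding TSS. That is not the like value, since only 1331 listed regions lay within 20 kb of any protein-coding TSS, and the 368 are among these.

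**Figure D2:**
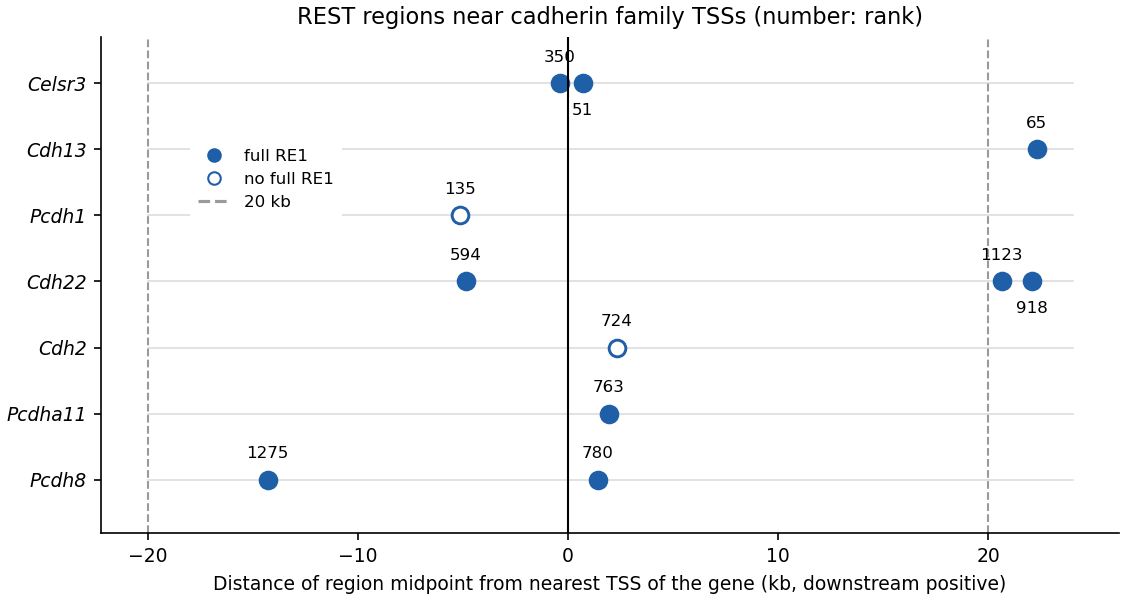
Distance of each region's midpoint from the nearest TSS of the gene in kb (x axis, positive downstream) for members with a region within 24 kb, ordered from the top by their best rank. Numbers are ranks, filled circles hold a full RE1, open circles do not, and dashed lines mark 20 kb. The 2 Celsr3 regions flank the TSS at 0.400 and 0.705 kb, while regions of Cdh22 and Cdh13 fall just past the 20 kb limit.

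Celsr3 carried the best ranked region of the family and the only pair with both midpoints within 1 kb of a TSS. The region of rank 51, at chr9:108729115-108729597, was centred 0.705 kb downstream of the TSS in coding exon, and at 482 bp it was the widest of the 8. The region of rank 350, at chr9:108728076-108728427, was centred 0.400 kb upstream, in the promoter, so that the midpoints were 1.10 kb apart. Nckipsd, a neighbouring gene, also has a TSS within 20 kb of both. The matches differ in kind, as the sequences below show, where capitals mark bases that match the defined bases of the RE1 and the free or mismatched bases are in lower case.
Celsr3 rank 350, full RE1, chr9:108728249-108728269, + strand: TTCAGCACCgtGGgCAGCaCt
Celsr3 rank 51, full RE1, chr9:108729486-108729506, + strand: TTgAGCgCCctGGgCcGCGCC
Celsr3 rank 51, wider-gap pair, chr9:108729373-108729402, + strand: TTCAGCACCacgtgctgtgaGGACAGCtCC
The upstream region held a full RE1 with 3 mismatches whose centre lay 7.0 bp from the region's midpoint. In the region of rank 51 the full match had 4 mismatches and lay 139.5 bp from the midpoint, farther than in any other of the 6 full matches, the next being 20 bp away. Closer to its midpoint, at 31.0 bp, was a perfect left element and a right element with 1 mismatch set 11 bases apart. Among the 88 regions of the list classed by a wider-gap pair, in the absence of a full RE1, gaps of 7 to 10 bases accounted for 87, and 1 had a gap of 11.

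The upstream match also falls in the promoter sequence that RefSeq gives for Celsr3. The 250 bases before its start (GRCm38.p6, chr9:108825795-108826044, + strand) are shown because this is the sole member with a listed region in its promoter, with the RE1 in capitals. It begins 127 bases before the RefSeq start, whereas the Ensembl start used for distances lies farther downstream.
Celsr3, bases before the RefSeq start: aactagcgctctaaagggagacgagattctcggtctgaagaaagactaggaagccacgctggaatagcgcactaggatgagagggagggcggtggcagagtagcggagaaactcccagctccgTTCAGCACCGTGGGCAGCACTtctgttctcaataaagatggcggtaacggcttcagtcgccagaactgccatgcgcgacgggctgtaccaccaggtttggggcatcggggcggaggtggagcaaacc

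Pcdh8, a delta-2 protocadherin studied in rat neurons for its role in removing N-cadherin from synapses, had a pair of regions. The region of rank 780 lay 1.43 kb downstream of the TSS in coding exon. The other, of rank 1275, at chr14:80185267-80185546, was intergenic, 14.3 kb upstream and 15.7 kb from the first. Both held a full RE1. The distal match is shown for its perfect right element.
Pcdh8 rank 1275, chr14:80185377-80185397, + strand: ggCtGgACCttGGACAGCGCC
It had 4 mismatches, all in the left element, and lay on the strand opposite to the gene. With 2 regions each, Celsr3 and Pcdh8 were among 204 protein-coding genes with more than 1 region within 20 kb.

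Cdh22, a type II cadherin of the brain, had 1 region by the 20 kb rule and 3 more inside the gene. The region by rule, of rank 594 at chr2:165065067-165065357, was intergenic, 4.86 kb upstream of the TSS. Its RE1 was the weakest full match among the 8, with 5 mismatches. The inner regions of ranks 918 and 1123 were intronic, lay 22.1 and 20.6 kb downstream of the inner TSS, and were 1.46 kb apart. The last region, of rank 2350, lay in coding exon 37.6 kb from that TSS and held neither a full RE1 nor a single element. The 4 regions spanned 96.0 kb.
Cdh22 rank 594, chr2:165065188-165065208, + strand: ggCAGCACCctGGACAGCaga
Cdh22 rank 918, chr2:164984734-164984754, + strand: TTCAGCACCaaGaACAGCGCC
Cdh22 rank 1123, chr2:164986152-164986172, + strand: aTCAGCACCaaGGACAGCGCt
The intronic matches differed from the RE1 at 1 and 2 of the 19 defined bases, yet both regions ranked below the upstream region with 5 mismatches. All 3 matches lay on the strand opposite to the gene. The whole region of rank 918 (chr2:164984606-164984903, 297 bp, + strand) is shown as the closest match of the gene in its setting, with the RE1 in capitals.
Cdh22 rank 918, listed region: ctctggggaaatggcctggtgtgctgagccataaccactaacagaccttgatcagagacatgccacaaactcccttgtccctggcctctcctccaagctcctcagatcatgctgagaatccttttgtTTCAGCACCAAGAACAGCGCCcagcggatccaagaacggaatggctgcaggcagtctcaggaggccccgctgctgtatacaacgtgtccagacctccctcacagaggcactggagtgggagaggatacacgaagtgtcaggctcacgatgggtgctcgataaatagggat

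Beyond 20 kb of a TSS, 12 further regions lay inside 4 member genes: Cdh13, Cdh22, Cdh4 and Cdh6. Counting a region either within 20 kb or inside the gene, 9 of 62 members were reached, 14.5% (6.86 to 25.8%), against 9.82% of all protein-coding genes. As loci it was 9 of 39, 23.1% (11.1 to 39.3%). The 9.82% counts genes singly, so it is not the like value for this share of loci. Members are long genes, with a median of 26.4 kb, and 99.8 kb outside the clusters, against 15.5 kb over all protein-coding genes. Per length, member gene bodies held 1.62 regions per Mb (16 regions in 9.86 Mb), against 1.30 per Mb over all protein-coding genes. Without Cdh13 the family's value was 1.13 per Mb. In the 20 kb windows around TSSs the family held 2.90 regions per Mb (8 in 2.75 Mb), against 1.78 per Mb for all protein-coding genes. The 12 regions ranked between 65 and 2426, with a median of 1249, and 6 of them were among the 1252 of best rank.

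Cdh13 encodes T-cadherin, which lacks a cytoplasmic tail, is anchored to the membrane by a lipid and binds adiponectin. No region lay within 20 kb of its TSSs, but 6 lay in introns along its 1041 kb, or 5.76 per Mb. Only 5 protein-coding genes held 6 or more regions, the most being 14. Of 5 members of 500 kb or more, Cdh13 was the 1 with a region inside, against 77 of 201 protein-coding genes of that length. The others were Cdh18, Pcdh9, Pcdh11x and Pcdh15.

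The regions near the inner TSS of Cdh13 ranked highest. Rank 65, at chr8:121782451-121782928, lay 22.3 kb downstream of that TSS, and rank 93, at chr8:121687993-121688336, lay 72.2 kb upstream of it. Ranks 1173, 1630, 2308 and 2426 lay farther towards the outer TSS. The closest RE1 of the gene was in the region of rank 1173, chr8:121475771-121476000, with a perfect right element.
Cdh13 rank 65, best of 3, chr8:121782749-121782769, + strand: TTCAGCACCgtGGcCAGaGgC
Cdh13 rank 93, chr8:121688156-121688176, + strand: cTCAGgACCatGGACAGCaCC
Cdh13 rank 1173, chr8:121475848-121475868, + strand: TTCAGgACCgtGGACAGCGCC
The region of rank 2426 had a right element alone (GGACAGCtCC) and that of rank 1630 no element, so 4 of the 6 held a full RE1. All full matches in the gene were on its own strand.

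Both multiple-site regions of the family were in Cdh13. The region of rank 65 held 3 copies at a step of 41 bp, and the region of rank 2308 also held 3, at a step of 35 bp. Over the list, 96 regions (3.83%) held more than 1 full RE1, with a median rank of 81.5, and 1358 held a single one, with a median rank of 1036.5. The first Cdh13 region thus ranked above the median of its class and the other far below it. They are shown as windows with each RE1 copy in capitals, and were singled out after their values had been seen.
Cdh13 rank 65, chr8:121782661-121782775, + strand: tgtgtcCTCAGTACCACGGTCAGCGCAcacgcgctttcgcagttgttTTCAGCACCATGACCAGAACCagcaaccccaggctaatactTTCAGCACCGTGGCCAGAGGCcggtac
Cdh13 rank 2308, chr8:121165869-121165971, + strand: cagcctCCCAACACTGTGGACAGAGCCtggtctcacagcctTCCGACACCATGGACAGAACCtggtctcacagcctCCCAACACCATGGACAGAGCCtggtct
In the window of rank 2308 the repeated unit extends past the RE1, and successive 35-base units shared 27 to 30 bases. In the window of rank 65 the 41-base units shared 19 to 21 bases. The copies of rank 65 had 3 to 4 mismatches and those of rank 2308 had 4 to 5.

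Cdh4, or R-cadherin, a type I cadherin of retina and brain, had intronic regions of rank 500 (chr2:179432976-179433262), 256 kb from its nearest TSS, and of rank 1325 (chr2:179211383-179211649), 34.2 kb away. The nearest TSS to the first was not that of Cdh4 but of Gm10711, 195 kb off. Both matches had 4 mismatches.
Cdh4 rank 500, chr2:179433096-179433116, + strand: gTCAGgACCctGGACAGaGCt
Cdh4 rank 1325, chr2:179211498-179211518, + strand: cctAGtACCaaGGACAGCGCC
In the match of rank 1325 all mismatches fell in the left element, as in the distal match of Pcdh8. Cdh6, a type II cadherin of kidney and brain, had a region of rank 1624 near its 3′ end (chr15:12966188-12966387), 137 kb from its TSS, with a full match of 5 mismatches.

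**Figure D3:**
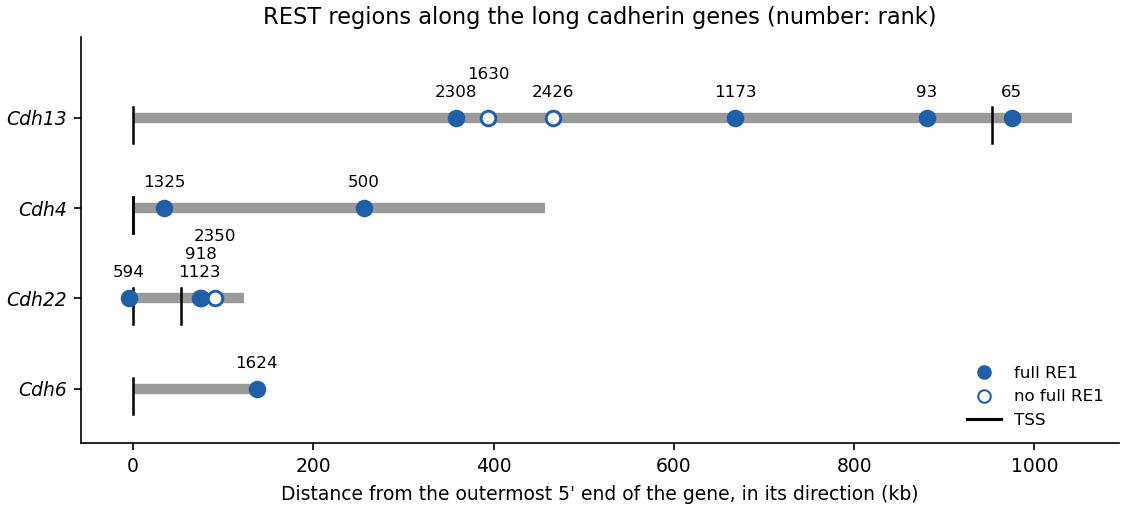
Position of REST regions along Cdh13, Cdh4, Cdh22 and Cdh6, as distance from the outermost 5′ end of each gene in the direction of transcription (x axis, kb). Grey bars are the genes, black ticks the TSSs, filled circles regions with a full RE1, open circles regions without, and numbers the ranks. Of the 6 Cdh13 regions, ranks 65 and 93 lie near the inner TSS.

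On the inner side of the 20 kb limit the farthest regions were those of Pcdh8 at 14.3 kb (rank 1275), Pcdh1 at 5.12 kb (rank 135) and Cdh22 at 4.86 kb (rank 594), so none was close to it. On the outer side, the Cdh22 regions at 20.6 kb (rank 1123) and 22.1 kb (rank 918) and the Cdh13 region at 22.3 kb (rank 65) lay just past it, and the next, that of Cdh4, was at 34.2 kb (rank 1325). The best ranked region of any Cdh gene, that of Cdh13, therefore falls outside the rule.

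The remaining members by the rule were Cdh2, Pcdh1 and Pcdha11, all on chromosome 18, and 2 of these 3 regions had no full RE1. Cdh2 encodes N-cadherin, the classical cadherin of neural tissue. Its region of rank 724, at chr18:16965280-16965592, was intronic, 2.32 kb downstream of the TSS, and held a left element alone, the closest full alignment having 6 mismatches. Pcdh1, a delta-1 protocadherin found in epithelia and brain, had a region of rank 135 at chr18:38376666-38376979. This lay in intergenic sequence 5.12 kb upstream and was the second best ranked among the 6 members' best regions. It held a right element alone, and its closest full alignment had 9 mismatches. Over the list, a left element alone was found in 274 regions (10.9%, median rank 1483.0) and a right element alone in 252 (10.1%, median rank 1658.5), so both members' regions ranked well above the medians of their classes.

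The clustered locus spans 912 kb of chromosome 18 and was annotated as 24 genes. The annotation folds the Pcdha array into 2 genes with 11 TSSs and the Pcdhg array into 1 gene (Pcdhgc5) with 10 TSSs, while the Pcdhb array has 21 genes with 25 TSSs. A region lay near a TSS in the Pcdha array only. It ranked 763, at chr18:37251573-37251876, 1.93 kb downstream of a TSS of Pcdha11 in coding exon, and held a full RE1 with 4 mismatches, 10 bp from its midpoint. A second region, of rank 231, lay between the Pcdha and Pcdhb arrays at chr18:37377862-37378172, in intergenic sequence 46.6 kb upstream of Pcdhb1. It held a wider-gap pair with a gap of 8, the most frequent of the wider gaps (28 of 88 regions), with a perfect left element and 1 mismatch in the right. This region had the better rank of the pair but was assigned to no member. The 21 Pcdhb genes lay 46.6 to 300 kb from their nearest region, and the Pcdhg array lay 137 kb from its nearest.

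**Figure D4:**
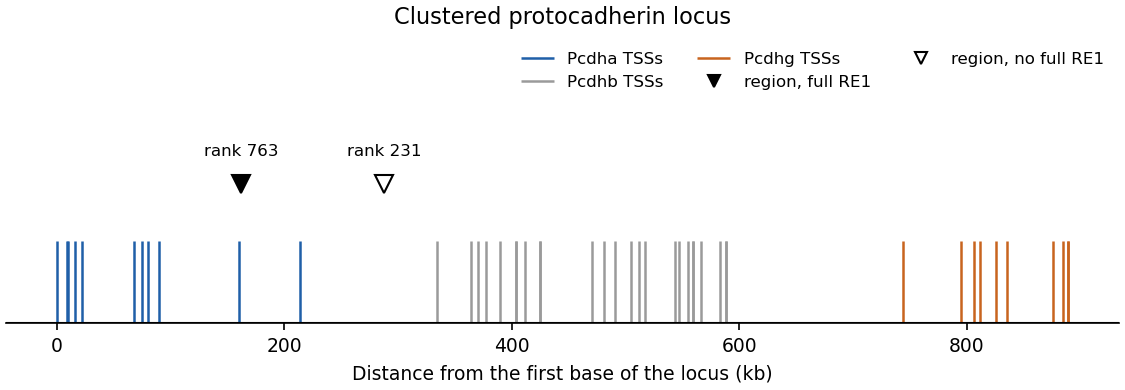
The clustered protocadherin locus, with TSSs of the Pcdha, Pcdhb and Pcdhg arrays as ticks along the distance from the first base of the locus (x axis, kb). Triangles mark the REST regions, filled with a full RE1 and open without. The region of rank 763 sits 161.8 kb along, among the Pcdha TSSs, and the region of rank 231 sits 288.1 kb along, between the Pcdha and Pcdhb TSSs.

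The other 56 members had no region within 20 kb. Their nearest region lay 22.3 kb away at the least, 257 kb at the median and 8820 kb at the most, the last for Pcdh11x. Outside the clusters, 33 members had none, at a median of 859 kb. The nearest of the 56 were Cdh13 (22.3 kb), Cdh4 (34.2 kb) and Pcdhb1 (46.6 kb). Among the classical cadherins without a region were Cdh1, or E-cadherin, which holds ESCs and epithelia together, at 265 kb, and its neighbour Cdh3, or P-cadherin, at 173 kb from the same region of rank 1717. Celsr1 and Celsr2, the relatives of Celsr3, were 227 and 177 kb from their nearest regions. The delta-2 protocadherins Pcdh10 and Pcdh19, the second linked to epilepsy in humans, were 5744 and 3091 kb away.

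Of the 8 regions by the rule, 6 held a full RE1, 75.0% (34.9 to 96.8%), against 58.1% of all regions, and of the 12 inside genes 9 did, 75.0% (42.8 to 94.5%). Both intervals include the value of all regions. In windows of the same width 2 kb to each side of listed regions, 46 of 4986 held a full RE1 (0.923%). The RE1 was fitted to the listed regions outside the family, with such windows as the contrast at its first step. The difference between this share and the 58.1% was therefore partly set by the method. With the region between the arrays, the family had 21 regions, 15 with a full RE1 and 19 copies in all. Of the 19 copies, 15 were on the strand of their gene. These are not separate observations, since the Cdh13 regions of ranks 65 and 2308 gave 3 tandem copies each, all on the gene's strand. No strand share over all listed regions is set beside this count. None of the family's regions matched the RE1 at all 19 defined bases, as 12 regions of the list did.

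**Figure D5:**
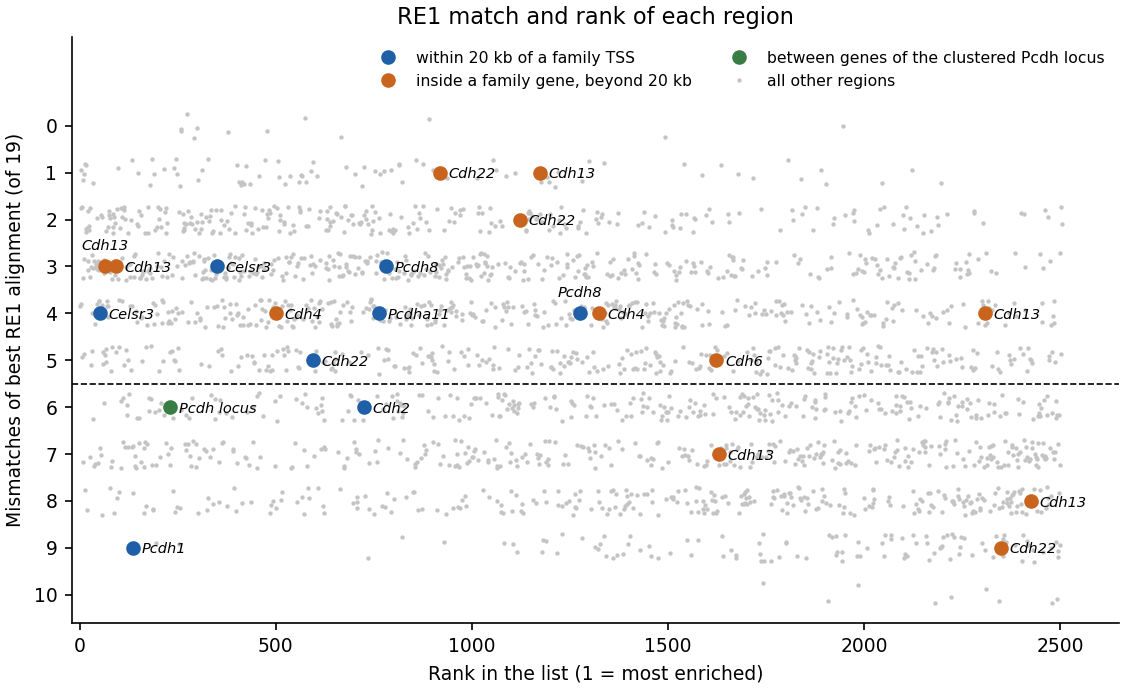
Rank of every listed region (x axis, 1 for the most enriched) against the mismatches of its best RE1 alignment over 19 bases (y axis, fewest at the top, grey points spread vertically for legibility). Family regions are large points named by gene, and the dashed line separates full RE1s (at most 5 mismatches) from the rest. Pcdh1 has 9 mismatches at rank 135, while the Cdh22 region of rank 918 has 1.

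Of the 21 family regions, 11 ranked above and 10 below the median rank of all listed regions with as many mismatches. Of the 8 regions within 20 kb of a TSS, 7 ranked above it, the exception being Pcdh8 at rank 1275 (4 mismatches, median 1083.0). Of the 12 regions inside genes, 3 ranked above it, the Cdh13 regions of ranks 65 and 93 (3 mismatches, median 909.00) and the Cdh4 region of rank 500 (4 mismatches), and 9 below. The regions with the fewest mismatches were among those below. They had 1 mismatch, at ranks 918 in Cdh22 and 1173 in Cdh13, against a median of 703.00. The medians cover all listed regions with as many mismatches, whether near a TSS or distant. No like counts are given for all regions within 20 kb of any protein-coding TSS, or for those farther away. Whether the 7 of 8 and the 3 of 12 are particular to the family was therefore not tested. Pcdh1 stood farthest from its class, at rank 135 with 9 mismatches, against a median of 1967.0, and the region between the clustered arrays (rank 231, 6 mismatches) also ranked above its median of 1496.0. The latter region held a wider-gap pair, which a count of mismatches to the full RE1 does not credit. The 88 regions classed by such a pair had a median rank of 765.00, nearer to 231.

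The genome was also searched for RE1s irrespective of the list. In the member genes and 20 kb around their TSSs there were 3 matches with at most 2 mismatches, in Cdh22 (a pair) and Cdh13, and all 3 lay in listed regions. Over all chromosomes 383 of 435 such matches did (88.0%). With at most 3 mismatches, 7 of 10 family matches were in listed regions, 70.0% (34.8 to 93.3%), against 809 of 1295, 62.5%, over all chromosomes. Within 20 kb of a member's TSS it was 2 of 4 (50%), against 410 of 616 (66.6%) within 20 kb of any protein-coding TSS. Because the RE1 was read from listed regions outside the family, the values over all chromosomes favour listed sites. The 3 unlisted matches were in Cdh4, 173 kb from its TSS, near Pcdh1, 15.7 kb from a TSS, and near Pcdh9, a delta-1 protocadherin, 2.48 kb from its TSS. The matches of Cdh4 and Pcdh9 are shown as RE1s of like quality to the listed ones.
Cdh4, unlisted, chr2:179350800-179350820, - strand: aTCAGCACCatGGACAGCaaC
Pcdh9, unlisted, chr14:94290426-94290446, - strand: TgCAGCACCcgGcACAGaGCC
Each had 3 mismatches, as did the listed match at Celsr3 (rank 350). The nearest listed region to a TSS of Pcdh9 was 4784 kb away. An unlisted match says only that no region was listed there, since the depth at the site was unknown and reads that map to more than 1 place were not kept.

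In RefSeq promoter windows (250 bases before to 50 after a start, GRCm38.p6), 24 members were matched by symbol, with 27 windows. The other members had no window. A full RE1 with at most 5 mismatches was found in 3 of the 27 windows, 11.1%, against 488 of all 32851 windows, 1.49%. Those windows came from 27025 genes, a wider set than the 22219 protein-coding genes used elsewhere. No interval was taken, since windows of 1 gene can overlap. The 3 windows belonged to Celsr3 and to an overlapping pair of Pcdh9, so 2 genes were involved, with a listed region at Celsr3 only.

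Other genes of cadherin adhesion and polarity, from lists of partners, had a region within 20 kb in 8 of 68 cases, 11.8%, against the 8.20% of all genes. Of 23 other cadherin superfamily genes, 3 had one: Clstn1 (rank 1766) and Clstn3 (rank 1351), which encode calsyntenins of the postsynaptic membrane, and Cdhr3 (rank 838). Of the catenins and plakophilins it was 1 of 14, the neuronal alpha-catenin gene Ctnna2 (rank 2213), 1.17 kb upstream of its TSS with a full RE1 of 4 mismatches. Of the planar cell polarity partners of Celsr3, 3 of 13 had a region, namely Dvl1 (rank 16), Prickle3 (rank 711) and Ankrd6 (rank 1905). The nearest TSS to the first 2 of these belonged to other genes, Tas1r3 and Syp. Of the intracellular partners of protocadherins 1 of 9 had a region, the tyrosine kinase gene Ptk2b (rank 1300), and of the regulators of the clustered genes, such as Ctcf and the cohesin genes, none of 9 did, which allows up to 33.6%.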

How the data were processed

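REST ChIP-seq was analysed from 1 sample, a single library pooled from technical and biological replicates. Per the deposited file, each of 2504 regions has a chromosome, start, end and a rank score given by the authors, with 1 the most enriched. Reads were aligned to mm9 with Bowtie per the methods, or BWA per the submitters' processing notes, and only uniquely mapped reads were kept, so that sites in repeats could be missing. Versions are not given in the sources used here. The methods give PeakRanger and MACS as peak callers, with the overlap kept, but whether the list is that overlap is not stated, and it holds more regions than the set counted in the study's text. Each share over all genes or regions refers to the list as deposited. Depth per region was unknown and the input was not analysed here, so no background was measured.

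Genes and exons were from GENCODE M1 (Ensembl 65) and sequence from NCBIM37. Region coordinates are printed as deposited, and starts were taken as counting from 0 when sequence was extracted, which could shift a window by 1 base. RE1 coordinates count from 1. Each distance is that between a region's midpoint and the closest protein-coding TSS of the gene. Gene bodies ran from the first to the last base annotated. The RE1 was read from regions outside the family, and its search and the gene assignment were tested on simulated data. Percentages carry exact Clopper-Pearson 95% intervals, for counting error only. Python 3.11.15, numpy 2.4.6, scipy 1.17.1, matplotlib 3.10.9 and samtools 1.23.1 were used.

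Named genes were set by rule: every member with a region, 7 members of interest, the 3 nearest outside the limit and every partner gene with a region. Printed RE1s were the best match of each region by rank, at most 12, apart from chromosome 18 and 1 match that is not reported here. Genes named beyond these, the tandem windows and the unlisted matches were chosen after values were seen. The members and lists were chosen with earlier results of these data known. Dchs2 of the partner lists was not in the annotation. Alternatives varied the distance, the TSS, the part of the list, the assignment, the clustered genes and the RE1 definition.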

Additional observations from a re-analysis of the deposited data

How the results depend on the processing

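Of 39 values recomputed under another setting, 37 stayed within the limits set for them and 2 moved. These limits were wide, since a change from 6 to 9 members still counted as within them. Some values could not move. The other cadherins and other protocadherins had 0 members with a region, which stricter settings could not lower. All 8 regions already had the member's TSS as the nearest, so using the nearest TSS alone could not change the family's values. The count of 37 is therefore no measure of stability. The share of the 8 regions with a full RE1 was 25.0% when at most 3 mismatches were allowed, against 30.8% of all regions, and 87.5% at 6 mismatches, against 69.8% of all regions. Within 5 kb no delta-1 protocadherin had a region, since that of Pcdh1 lay 5.12 kb away. The number of members near a region was 5 within 5 kb, 9 within 50 kb (14.5%, below the 15.8% of all genes, whereas at 20 kb the family's share was the higher) and 5 when only the outermost 5′ end of each gene was used (8.06%, against 7.56% of all genes), which dropped Pcdha11 and gave a share within 1 kb of 28.6%. It was 6 when any base of a region could count and 6 when each region was given to its nearest TSS alone, for which all genes had 5.41%. Leaving out the clustered genes gave a median rank of 594.0. No paired analysis was possible because the replicates were pooled into 1 library with no replicate numbers, and for the same reason no replicate could be left out. The study gives the aligned reads of each whole library, but depth and read counts per region were unknown and the input was not analysed here. An unlisted site is therefore not shown to be unbound, and the ranks carry no error.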
